A study of Rattus norvegicus with 9 samples.

Results

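Rax, Dio2, Vim, Nes, Thra, Thrb and Crym were followed through female puberty in the rat hypothalamus, as genes of tanycytes and of thyroid hormone action. Their probe sets were those to which the platform annotation gives exactly 1 gene symbol, that of a listed gene, and there were 13 of them for 7 genes, out of 20826 probe sets named by 1 gene and 31042 in all without controls. Of these, Thrb had 4, Thra 3 and Rax 2, and Dio2, Vim, Nes and Crym had 1 each. Whole hypothalamus of normal, untreated female rats had been profiled on single-channel Affymetrix arrays in 3 stages. Juvenile rats were 26 days old and are the controls of the study, early pubertal rats were 29 days old, and late pubertal rats were 31 days old. Each stage had 3 arrays, each made from the hypothalamus of 1 rat. The sources used here do not give strain, dissection borders or the signs that assigned a rat to a stage.

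Tanycytes are elongated glial cells of the floor and lower walls of the third ventricle, with processes that reach into the arcuate nucleus and the median eminence. They share intermediate filament proteins with radial glia and immature cells, and they take up thyroxine and convert it to triiodothyronine, the hormone that binds the nuclear receptors. Local supply of triiodothyronine by these cells is known for its part in the seasonal control of reproduction in birds and mammals.

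Of genes of hypothalamic neurons, 14 of 17 on the array, among them Avp, Oxt, Hcrt and Pmch, lay above the signal filter described next. Sim1, Otp and Pomc lay below it. Thalamus genes passed for 5 of 6, and genes of striatum and cortex for 7 of 10. The filter keeps most probe sets, so these counts do not tell the tissues apart and do not test the tissue label. Each probe set carries 1 linear signal intensity per array, as deposited. For tests they were taken as log2(signal + 16), normalized between arrays so that all arrays share 1 distribution, and kept where the mean over the 9 arrays exceeded the 40th percentile, a log2 level of 6.30. Without that normalization the median log2 difference over all tested probe sets was −0.24 in early pubertal and −0.02 in late pubertal against juvenile animals. Median deposited signal was 79.8 to 101 in the early pubertal arrays, below the other 6 arrays at 102 to 122. Separations of stages as deposited were not counted over all probe sets, so those given below have no share to be read against. The 3′ to 5′ ratio of the beta-actin control ran from 2.14 to 3.24, with overlapping stages.

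The tanycyte genes differed in how well the array read them. Vim lay at the 98.3rd percentile of mean normalized level among all probe sets, 1 Rax probe set at the 54.6th and Nes at the 44.2nd, while Dio2 lay at the 28.9th, below the filter. Percentiles place each probe set on the array and are not a comparison of transcript amounts between genes. Vim and Nes are also made by vessels, astrocytes and membranes of the brain surface, and Thra, Thrb and Crym by neurons, so these arrays describe the genes in whole tissue. In all, 8 of the 13 probe sets passed the filter, standing for 6 genes. None passed through a single stage alone, since the lowest stage mean among them, 6.49 for Nes in early pubertal rats, exceeded the filter level.

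Rax encodes a homeobox transcription factor that marks tanycytes and is needed for their identity. Its brighter probe set, 1398503_at, read 99.7, 103 and 100.5 in the juvenile rats, 128, 109 and 112 in the early pubertal rats and 174, 123 and 177 in the late pubertal rats. All 6 pubertal arrays lay above all 3 juvenile arrays, both as deposited and after normalization, and the late pubertal arrays were the most spread. Mean signal was 101 ± 1.74 (SD, n = 3) at day 26, 116 ± 10.6 at day 29 and 158 ± 30.5 at day 31. On the normalized scale the early pubertal level exceeded the juvenile by 0.39 ± 0.15 on the log2 scale (SE, 3 rats per stage), a fold of 1.31, and the late pubertal level exceeded it by 0.54 ± 0.15, a fold of 1.46. In limma the unadjusted p was 0.0287 and 0.00435, and neither difference passed after Benjamini-Hochberg adjustment over 18625 probe sets, with adjusted p of 0.994 and 0.9998. The 95% intervals ran from 0.05 to 0.72 and from 0.21 to 0.88. Late and early pubertal rats, the neighbours in the order of levels, differed by 0.16 ± 0.15 with overlapping arrays. That difference was 0.043 without late pubertal replicate 12, 0.29 without late pubertal replicate 14 and 0.38 at the deposited level. Both differences from juvenile rats rest on the same 3 juvenile arrays. In bulk tissue, a different number of cells of a type and a different amount of RNA per cell cannot be told apart.

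**Figure D1:**
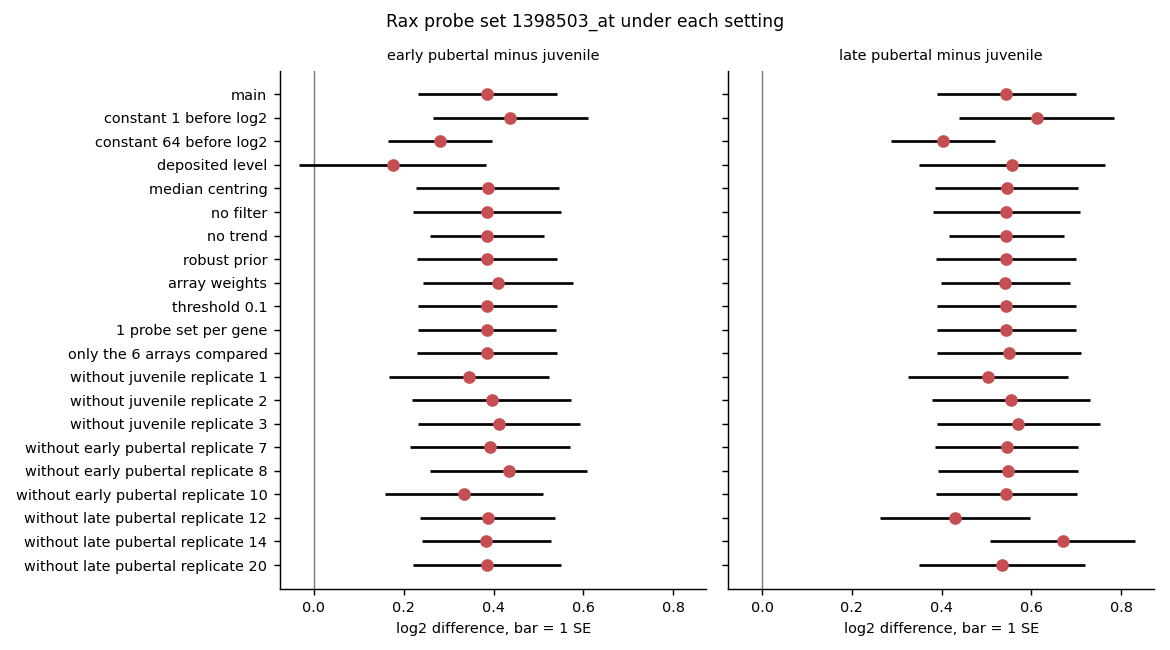
Log2 difference of Rax probe set 1398503_at from juvenile rats (x axis, bars 1 SE of the fit) in early pubertal (left) and late pubertal (right) rats, under each setting of the analysis (y axis). All values are above 0; the lowest early pubertal value is 0.18 at the deposited level, and the lowest late pubertal value is 0.40 with a constant of 64 before the log.

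Other probe sets showed the same separation. Arrays did not overlap, with the pubertal stage higher, for 3.86% of probe sets between early pubertal and juvenile rats, for 5.90% between late pubertal and juvenile rats, and for 1.14% in both comparisons together, against 1 of the 8 member probe sets in each case. Unadjusted limma p under 0.05 with a higher pubertal level was reached by 1.92% and 2.23% of probe sets, against 1 of 8 members in each comparison. By the moderated F test over the 3 stages, Rax was 1 of 8 at an unadjusted p of 0.0122, where 4.22% of all probe sets were under 0.05. The Rax difference in early pubertal rats was 0.18 without normalization between arrays (unadjusted limma p of 0.404). The platform annotation ties the brighter Rax probe set to a sequence record that is not a RefSeq transcript. The other Rax probe set, 1398284_at, is tied to a RefSeq transcript, and was dim and below the filter. It read 6.09, 24.7 and 8.12 in juvenile, 8.61, 10.1 and 6.23 in early pubertal and 6.35, 25.2 and 22.9 in late pubertal rats, and its stages overlapped. In the fit without a filter it differed from juvenile rats by −0.12 ± 0.27 and 0.19 ± 0.27.

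In the table of RefSeq promoters used here (build GRCr8), 6 of the 7 genes matched, with 7 windows of 250 bases before the start, among them those of Rax and Vim. The Rax window is shown because Rax is the member whose pubertal arrays lay above the juvenile ones, and a stretch of the Vim window because it holds motif matches. The letters searched, on both strands, were AGGTCA, the half-site of thyroid hormone receptors, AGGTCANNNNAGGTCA, the same half-site as a direct repeat, TATAAA and CCAAT. The single half-site lies within the direct repeat, so those searches overlap. Capitals mark matches. The Rax window lies at chr18:61737445-61737694 on the minus strand, and the Vim stretch at chr17:81577101-81577200 on the plus strand, from 160 to 61 bases before the start.
Rax: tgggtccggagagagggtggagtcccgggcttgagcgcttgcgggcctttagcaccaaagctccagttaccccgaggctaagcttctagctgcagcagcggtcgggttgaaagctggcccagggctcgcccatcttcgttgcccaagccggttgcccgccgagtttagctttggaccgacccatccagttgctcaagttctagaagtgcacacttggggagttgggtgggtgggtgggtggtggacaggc
Vim: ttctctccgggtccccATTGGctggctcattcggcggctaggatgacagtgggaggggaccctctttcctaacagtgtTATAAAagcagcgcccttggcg
The Rax window held none of these letters, which says only that they are not in this window. In the Vim stretch, CCAAT matched on the reverse strand and TATAAA on the forward strand. AGGTCA was in none of the 7 windows, where 14.1% of all 33469 windows of this length held it, and the direct repeat was in 0.00299%. TATAAA was also in the window of Dio2, and 12.9% of all windows held it, as 34.0% held CCAAT.

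Vim encodes vimentin and Nes encodes nestin, intermediate filament proteins that fill the long processes of tanycytes. Vim, probe set 1367574_at, read 2813, 2845 and 2166 in juvenile, 2262, 2094 and 3116 in early pubertal and 2491, 2868 and 3077 in late pubertal rats. The stages overlapped, and the highest value was that of early pubertal replicate 10. Early pubertal rats differed from juvenile rats by 0.11 ± 0.13 on the log2 scale (SE, 3 rats per stage), or by −0.080 without replicate 10, and late pubertal rats by 0.12 ± 0.13, or by 0.045 without juvenile replicate 3 and 0.22 without juvenile replicate 2. The 95% intervals, −0.19 to 0.40 and −0.17 to 0.42, include 0. Limma adjusted p was 0.994 and 0.9998.

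Nes, probe set 1386948_at, read 82.3, 80.7 and 85.7 in juvenile, 64.2, 58.5 and 76.7 in early pubertal and 56.8, 87.3 and 114 in late pubertal rats. As deposited, all early pubertal arrays lay below the juvenile arrays, and after normalization the stages overlapped. The normalized differences from juvenile rats were −0.08 ± 0.22 and −0.02 ± 0.22, with limma adjusted p of 0.996 and 0.9998. Nes had the widest error among the 8 probe sets, whose SE ran from 0.11 to 0.22.

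Marker levels of other cells were set beside Vim and Nes. Leptomeningeal and fibroblast markers, all 14 above the filter, summed to 21446 to 23542 in juvenile, 22753 to 28367 in early pubertal and 24156 to 26808 in late pubertal rats, in units of normalized signal. Early pubertal replicate 10 held the highest sum, as it held the highest Vim. Markers of endothelial and mural cells (15 genes, 2 below the filter) summed to 4592 to 5033, 4676 to 5870 and 4970 to 5422 in the same order. Such sums weigh bright genes most. Of the 13 tested endothelial and mural genes, 8 were higher in early pubertal and 6 in late pubertal than in juvenile rats. Their median log2 differences were 0.07 and −0.14. Other tanycyte markers (17 genes, 6 below the filter) summed to 5551 to 5975, 5370 to 6667 and 5601 to 5985, and ependymal markers (9 genes, all above the filter) to 2258 to 2505, 2203 to 2723 and 2420 to 2481. Replicate 10 of the early pubertal stage was highest in these 3 lists as well. Astrocyte markers (13 genes, all above the filter) summed to 43364 to 44160, 44118 to 46248 and 43702 to 47170. There the highest sum was that of late pubertal replicate 20, at 47170, and early pubertal replicate 10 stood at 45935. By the mean log2 deviation of the astrocyte genes from their own means, early pubertal replicate 8 was highest, at 0.09. Late pubertal replicate 20 stood at 0.04 by that measure. The part of these cells in the Vim values was not tested. For Rax, this array was the highest of the early pubertal arrays after normalization, and without it the early pubertal difference was 0.33 ± 0.18. The leptomeningeal sums of all 3 late pubertal arrays lay above those of the juvenile arrays, as the Rax values did, and their part in the Rax values was not tested.

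**Figure D2:**
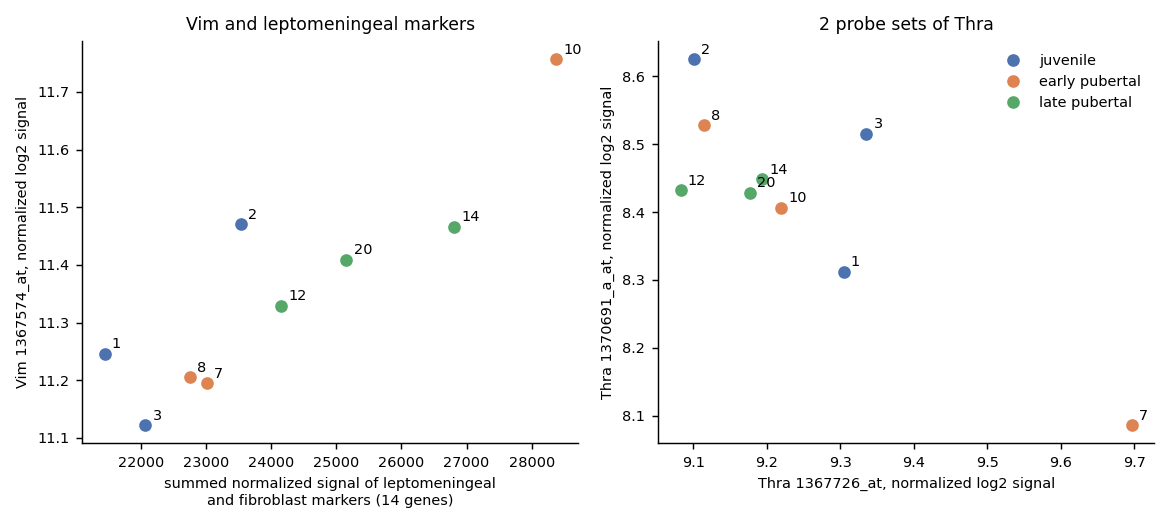
Left, normalized log2 signal of Vim (y axis) against the summed normalized signal of 14 leptomeningeal and fibroblast markers (x axis), 1 point per rat labelled with its replicate number; early pubertal replicate 10 is highest on both axes. Right, normalized log2 signals of 2 Thra probe sets against each other; early pubertal replicate 7 is highest on the x axis and lowest on the y axis.

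Dio2 encodes the type II deiodinase, the enzyme that makes triiodothyronine from thyroxine in tanycytes and astrocytes. Its probe set, 1369778_at, read 57.6, 43.7 and 20.6 in juvenile, 12.5, 51.0 and 31.3 in early pubertal and 20.4, 45.2 and 69.6 in late pubertal rats. The spread within each stage was as wide as that between stages, and all stages overlapped. In the fit without a filter, Dio2 differed from juvenile rats by −0.11 ± 0.40 and 0.04 ± 0.40 on the log2 scale, with 95% intervals of −0.98 to 0.76 and −0.83 to 0.91. A change of 1.5-fold in either direction lies inside both intervals, so the arrays did not resolve Dio2.

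Thra encodes thyroid hormone receptor alpha, the main receptor form in neurons, and is known to be spliced into forms that do and do not bind the hormone. Probe set 1367726_at read 729, 564 and 622 in juvenile, 806, 464 and 482 in early pubertal and 511, 575 and 661 in late pubertal rats. Its highest array was early pubertal replicate 7, and the stages overlapped. Probe set 1370691_a_at read 353, 401 and 348, then 251, 304 and 266, then 323, 335 and 387. As deposited its early pubertal arrays lay below both other stages, and after normalization all stages overlapped. The normalized early pubertal difference from juvenile was 0.10 ± 0.14 on the first probe set and −0.14 ± 0.13 on the second, and the late pubertal difference was −0.10 ± 0.14 and −0.05 ± 0.13. Without early pubertal replicate 7 the early pubertal difference was −0.081 on the first and −0.017 on the second. None passed, with limma adjusted p of 0.994 to 0.9998. The remaining Thra probe set, 1380518_s_at, lay between 3.02 and 13.5 on all arrays, below the filter.

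The brighter pair of Thra probe sets went opposite ways from array to array. Over the 9 arrays Pearson r was −0.84 (exact permutation p of 0.0151, adjusted p of 0.211 over the 28 pairs among the 8 probe sets), and Spearman rho was −0.58 (exact permutation p of 0.108, adjusted p of 0.874). Without the 2 arrays farthest from the median of 1367726_at r was −0.77, and without early pubertal replicate 7 alone it was −0.44. The relation did not pass the correction and was weaker by rank. Which splice forms each probe set reads is not given in the sources used here.

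Thrb encodes thyroid hormone receptor beta, the form that serves feedback in hypothalamic and pituitary cells. Its brighter probe set, 1394456_at, read 450.3, 469 and 391.5 in juvenile, 390.9, 294 and 346 in early pubertal and 404, 437 and 473 in late pubertal rats. Probe set 1378457_at read 175, 163 and 182, then 131, 136 and 143, then 133, 166 and 195. On both, the early pubertal arrays lay below the juvenile arrays as deposited and overlapped with them once arrays shared a distribution. Normalized early pubertal differences from juvenile were −0.08 ± 0.11 and −0.07 ± 0.15, and late pubertal differences were 0.04 ± 0.11 and −0.07 ± 0.15. The first had the narrowest interval among the member probe sets, −0.31 to 0.16 in early pubertal and −0.20 to 0.27 in late pubertal rats. The other 2 Thrb probe sets were below the filter, 1370474_at between 38.2 and 79.5 and 1387983_at between 27.5 and 52.9. The latter read 0.34 ± 0.24 lower on the log2 scale in late than in early pubertal rats, without overlap after normalization and with overlap as deposited. The share of all probe sets without overlap between the pubertal stages was not counted.

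Thrb probe set 1378457_at and Nes varied together over the 9 arrays, with Pearson r of 0.88 (exact permutation p of 0.00224, adjusted p of 0.0627 over 28 pairs) and Spearman rho of 0.83 (exact permutation p of 0.00827, adjusted p of 0.194). Without the 2 arrays farthest from the median of Nes r was 0.77. Vim and Thrb probe set 1394456_at gave r of 0.59 (exact permutation p of 0.102, adjusted p of 0.901) and rho of 0.80 (exact permutation p of 0.0138, adjusted p of 0.194), and r of 0.80 without the 2 arrays farthest from the median of Vim. No pair passed after adjustment, and the tanycyte genes Rax and Vim gave r of 0.30.

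Crym encodes mu-crystallin, a cytosolic protein that binds triiodothyronine. Probe set 1368059_at read 569.6, 344 and 545 in juvenile rats, then 460.4, 373 and 443 in early pubertal and 520.4, 608 and 535 in late pubertal rats. The late pubertal arrays all lay above the early pubertal arrays as deposited, and overlapped with them after normalization. Late pubertal rats differed from juvenile rats by 0.24 ± 0.17 on the log2 scale and from early pubertal rats by 0.14 ± 0.17, with limma adjusted p of 0.9998 and 0.934. Without juvenile replicate 2, the lowest of the 9 arrays, the late pubertal difference from juvenile was 0.025.

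Counted over the 8 probe sets above the filter, 4 were higher and 4 lower in early pubertal than in juvenile rats, with a median log2 difference of 0.01, and 4 and 4 in late pubertal rats, with a median of 0.0063. Between the pubertal stages 6 were higher and 2 lower in late pubertal rats, with a median of 0.08. At the deposited level, where the early pubertal arrays are dimmest, 1 was higher and 7 lower in early pubertal and 5 and 3 in late pubertal against juvenile rats, and all 8 were higher in late than in early pubertal rats, with medians of −0.22, 0.0042 and 0.30. Over all tested probe sets the medians at the deposited level were −0.24, −0.016 and 0.22, so the members moved about as the arrays did. After normalization the medians over all tested probe sets were −0.0014, −0.0015 and 0.00037. None of the 8 passed in any comparison, and neither did any other probe set: limma with Benjamini-Hochberg adjustment called 0 of 18625, or 0%, in each pairwise comparison and in the F test. Unadjusted limma p under 0.05 was reached by 831 of the 18625 between early pubertal and juvenile and by 772 between late pubertal and juvenile. It was reached by 971 between the pubertal stages and by 786, or 4.22%, in the F test. Counts of this size arise at that threshold without any difference between stages.

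**Figure D3:**
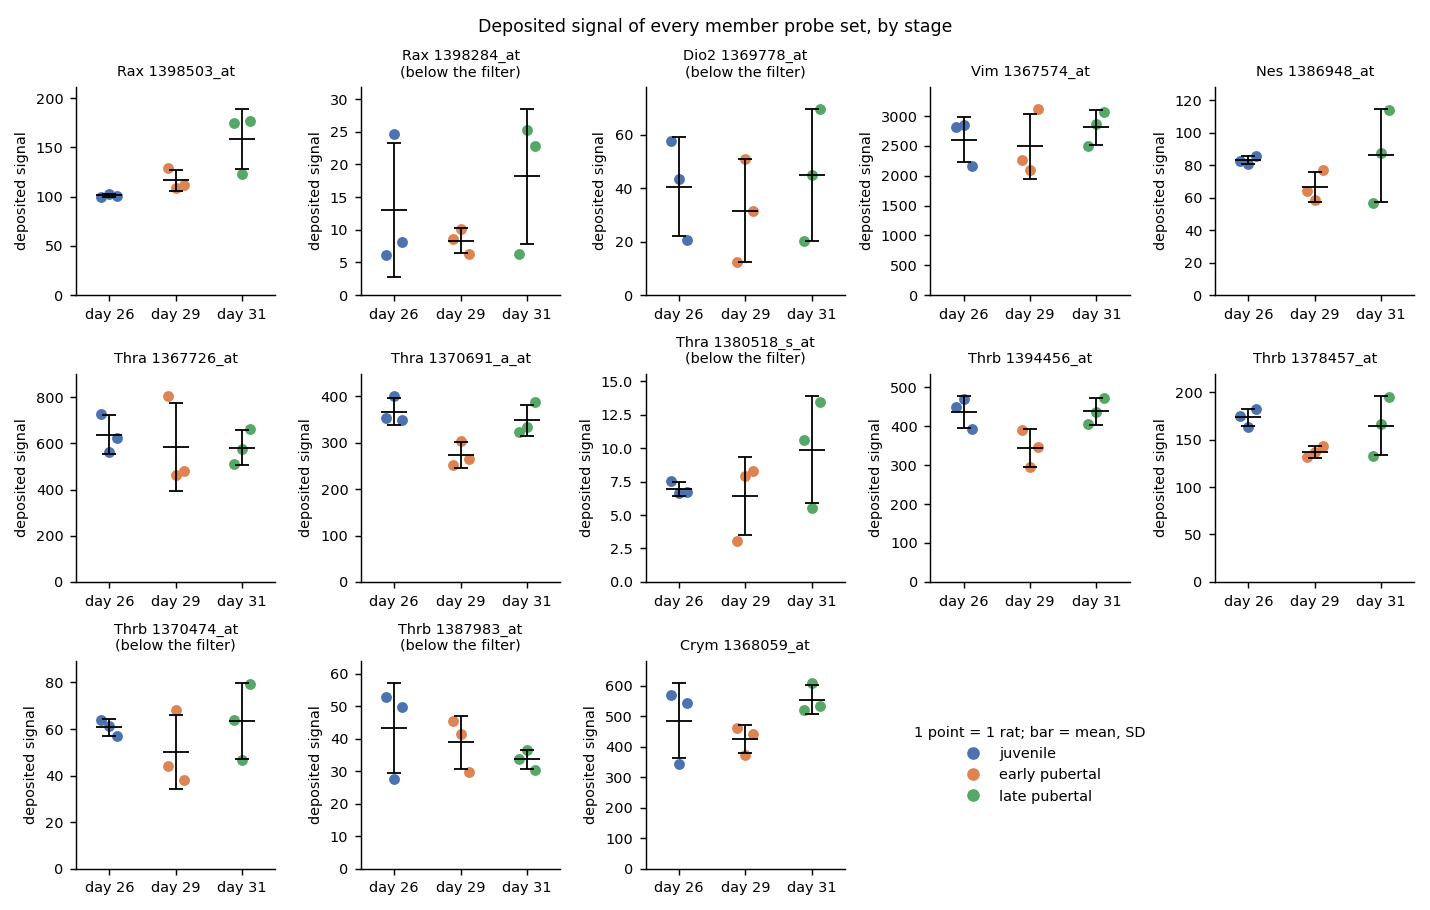
Deposited signal (y axis, linear, from 0) of the 13 probe sets of Rax, Dio2, Vim, Nes, Thra, Thrb and Crym at each age (x axis), with 1 point per rat and bars for the mean and SD of 3 rats. Rax 1398503_at is the panel whose day 29 and day 31 points all lie above those of day 26; the panels marked as below the filter were dim and were not tested in the main fit.

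**Figure D4:**
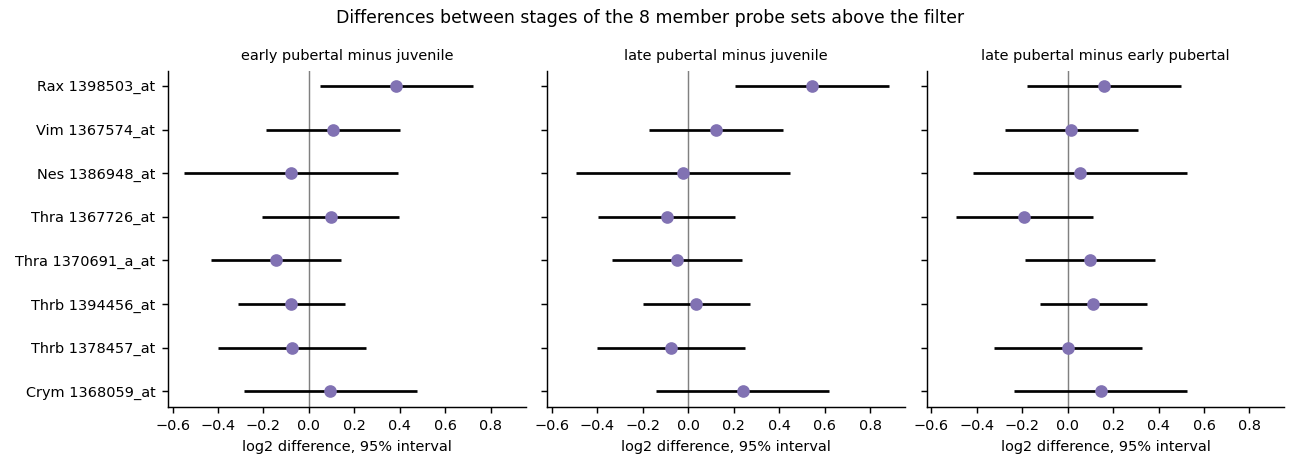
Log2 differences between stages on normalized values (points) with 95% intervals (lines) for the 8 probe sets above the signal filter. The intervals of Rax lie above 0 in both comparisons with juvenile rats, at 0.05 to 0.72 and 0.21 to 0.88 before adjustment for 18625 tests, and all others span 0.

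Other genes of the thyroid hormone pathway were read on the brightest tested probe set of each gene. None passed in any comparison, at limma adjusted p of 0.914 or higher for every listed gene. Arrays without overlap are read against their share of all tested probe sets, 3.86% higher and 4.43% lower in early pubertal against juvenile rats and 5.90% higher and 5.52% lower in late pubertal against juvenile rats. Counts of higher genes are read against 49.6% of all tested probe sets, the share that was higher in each of these comparisons. The transporter list includes the secreted carrier Ttr, which is counted again with the binding proteins below. In early pubertal rats 4 of its 6 tested genes were higher and 2 lower, and in late pubertal rats 3 and 3. The medians against juvenile rats were 0.04 and −0.02. Slco1c1, a thyroxine transporter of brain vessels and astrocytes, had a signal of 783.5 ± 21.4 (SD, n = 3) at day 26, 668 ± 69.7 at day 29 and 658 ± 84.0 at day 31. After normalization, which raises the dimmer early pubertal arrays, its early pubertal difference from juvenile was 0.03 ± 0.12 with overlap, and its late pubertal difference was −0.22 ± 0.12 with no overlap. The organic anion transporter Slco1a4 stood at 0.30 ± 0.12 and the amino acid transporter Slc7a8 at −0.55 ± 0.30 in the same comparison, the latter without overlap. Slc3a2, the heavy chain shared by amino acid transporters, stood at 0.10 ± 0.07 in early pubertal rats, without overlap, and at 0.02 ± 0.07 in late pubertal rats. Slc16a10, an aromatic amino acid transporter, lay below the filter.

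Dio3 encodes the deiodinase that inactivates thyroid hormone. Its signal stood at 65.8 ± 20.4 (SD, n = 3) on day 26, at 51.8 ± 23.0 on day 29 and at 114 ± 23.3 on day 31. After normalization the late pubertal level exceeded the juvenile by 0.68 ± 0.32 and the early pubertal by 0.80 ± 0.32, with overlapping arrays, unadjusted limma p of 0.0541 and 0.0259 and adjusted p of 0.9998 and 0.914. Secisbp2, needed to build selenocysteine into deiodinases, stood at 0.02 ± 0.14 and −0.04 ± 0.14 against juvenile rats. Ttr, the thyroxine carrier made by the choroid plexus, had a late pubertal signal of 288 ± 160 and differed from juvenile rats by 0.44 ± 0.35. Choroid plexus markers, Ttr among them (9 genes, 4 below the filter), summed to 2571 to 3359 in juvenile rats. They summed to 3008 to 3151 in early pubertal and 3279 to 3531 in late pubertal rats. Their part in the Ttr values was not tested. Dio1 and Serpina7 lay below the filter. Of the 3 genes tested in the list of deiodinases and binding proteins, 2 were higher and 1 lower in each pubertal stage, with medians of 0.02 and 0.44. The late pubertal median is the Ttr value.

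Among receptor partners and coregulators, 6 of 10 tested genes were higher in early pubertal and 4 of 10 in late pubertal rats, with medians of 0.04 and −0.02. Gps2 and Hdac3, subunits of the corepressor complex that unliganded receptors recruit, stood at 0.46 ± 0.19 and 0.20 ± 0.09 in early pubertal rats, without overlap with the juvenile arrays. In late pubertal rats they stood at 0.36 ± 0.19 and 0.06 ± 0.09. The other subunits of that complex did not share a direction in early pubertal rats, with Tbl1x at −0.24 ± 0.16, Tbl1xr1 at −0.11 ± 0.10 and Ncor1 at 0.03 ± 0.09, all overlapping with juvenile arrays; they were named after their values were seen. The coactivator Ncoa3 stood at 0.36 ± 0.22 and the retinoid X receptor Rxrb, a dimer partner, at −0.23 ± 0.18 in late pubertal rats, both without overlap.

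Genes of the thyroid axis were higher for 2 of 5 tested in early pubertal and 1 of 5 in late pubertal rats, with medians of −0.04 and −0.14. Trh, the hypothalamic releasing hormone, had a signal of 490.1 ± 62.7 (SD, n = 3), 397 ± 58.0 and 416 ± 36.5, and differed from juvenile rats by −0.04 ± 0.15 and −0.20 ± 0.15. Its receptor gene Trhr differed by 0.13 ± 0.11 and −0.14 ± 0.11, the latter without overlap, and Cpe, a peptide processing enzyme, by −0.06 ± 0.04 in both stages. Tshb, a pituitary hormone subunit, averaged 250.4 in juvenile rats with an SD above that mean, and late pubertal rats differed by −0.80 ± 0.65. Pituitary markers, Tshb among them (9 genes, 5 below the filter), summed to 1437 to 3115 in juvenile rats. They summed to 1975 to 2699 in early pubertal and 1737 to 2247 in late pubertal rats. The part of the other pituitary markers in the Tshb values was not tested. Trhde, the tanycyte ectoenzyme that degrades the releasing hormone, lay below the filter.

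Genes known to respond to thyroid hormone in brain were higher for 7 of 14 in early pubertal and 10 of 14 in late pubertal rats. Their medians were 0.02 and 0.03. The list was not divided by the direction in which the hormone moves each gene, so these counts do not measure hormone response. Klf9, a transcription factor that triiodothyronine and glucocorticoids induce, had a late pubertal signal of 2252 ± 234 (SD, n = 3) against 1790.0 ± 139 in juvenile rats. Its normalized difference was 0.35 ± 0.09 with no overlap of arrays, an unadjusted limma p of 0.00186 and an adjusted p of 0.9998. Pcp2 stood at 0.47 ± 0.22 and Thrsp, a lipogenic gene that thyroid hormone induces, at 0.33 ± 0.15, the latter without overlap and at 0.28 ± 0.15 in early pubertal rats. Dio3 is in this list as well. The myelin genes Mbp and Mag were also tested, and Mbp stood at 0.04 ± 0.05 in early pubertal and 0.00013 ± 0.05 in late pubertal rats.

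Other tanycyte markers were higher than in juvenile rats for 7 of 11 tested genes in early pubertal and 9 of 11 in late pubertal rats, with medians of 0.11 and 0.07. Igfbp5, a binding protein of insulin-like growth factors, stood at 0.32 ± 0.10 and 0.13 ± 0.10 and Sox2, a transcription factor of neural stem cells and tanycytes, at −0.17 ± 0.08 and −0.26 ± 0.08, all 4 without overlap. Crabp1, a retinoic acid binding protein, stood at 0.36 ± 0.23 and 0.52 ± 0.23, the latter without overlap, and the sodium channel gene Scn7a at 0.22 ± 0.12 and 0.26 ± 0.12. Lhx2, which acts with Rax in tanycyte development, stood at 0.07 ± 0.25 and 0.06 ± 0.25. Ependymal markers were higher for 5 of 9 and 6 of 9, with medians of 0.02 and 0.03. Tekt1, a ciliary tubule protein, stood at 0.33 ± 0.13 and 0.02 ± 0.13, and Foxj1, the regulator of motile cilia, was among those tested. Leptomeningeal markers were higher for 13 of 14 in both stages, with medians of 0.16 and 0.25, and astrocyte markers for 11 of 13 in both, with medians of 0.10 and 0.07. Higher without overlap in late pubertal rats were 4 of 14 leptomeningeal, 4 of 13 astrocyte and 2 of 11 other tanycyte markers. In early pubertal rats these counts were 0, 2 and 1.

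**Figure D5:**
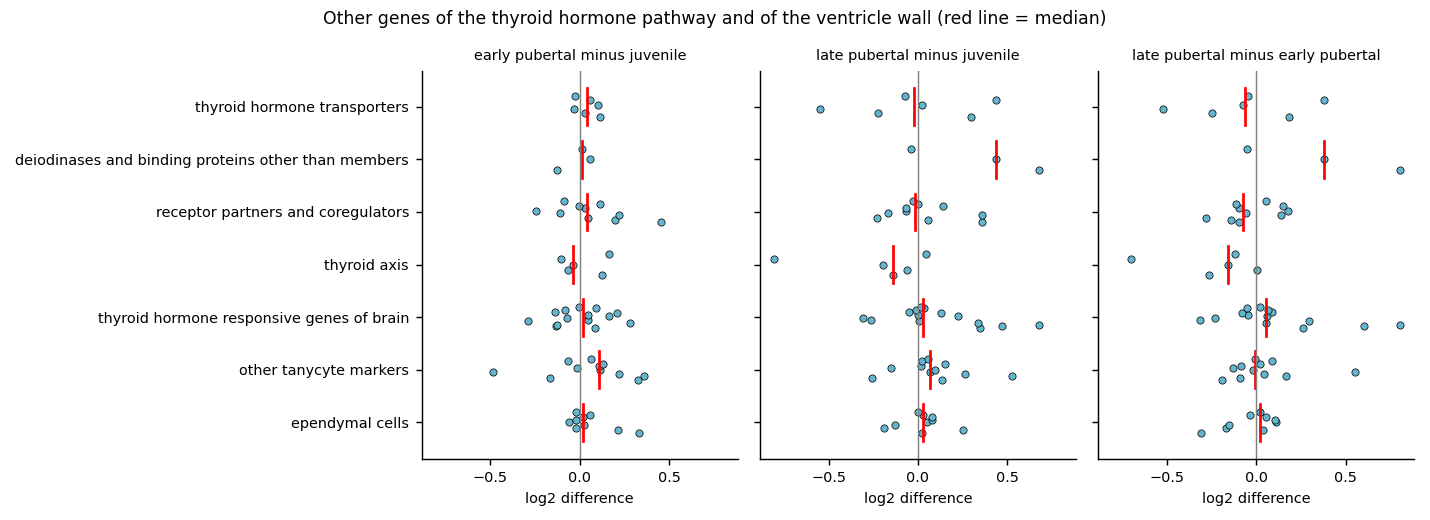
Log2 differences between stages (x axis) of the tested genes of the thyroid hormone lists, other tanycyte markers and ependymal markers (y axis), 1 point per gene, with the list median as a red line. Medians of the late pubertal comparison with juvenile rats lie between −0.14 and 0.07 except for the list of 3 deiodinase and binding protein genes at 0.44, which is the value of Ttr.

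The genes whose normalized levels over the 9 arrays were most like those of each member were named by the highest Pearson r among 10599 other genes, as a description. The arrays share 1 normalization, and a search this wide yields high values for any probe set. For Rax they were Rps3a, a ribosomal protein gene (r of 0.93), and Esf1 (0.91), and within stages r was 0.83 and 0.64. For Vim they were Cald1, the actin-binding caldesmon (0.98), and Pros1, the anticoagulant protein S (0.97). For Nes they were Hmgn2, a nucleosome-binding protein (0.96), and Cbll1 (0.92). For Thra 1367726_at they were U2surp (0.92) and C1h19orf47 (0.91), for Thrb 1394456_at Dab2, an endocytic adaptor (0.97), and Ralgds (0.96), and for Crym Pura (0.95) and Gtpbp4 (0.93). No member was among the most like genes of another.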

How the data were processed

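Stages, ages and replicate numbers were taken from the labels. The deposited signal intensities, 1 linear value per probe set and array, were made by the authors with MAS5, per the submitters' processing notes, with version and target level not given in the sources used here. Arrays differed in level, by up to 1.41 times in mean signal trimmed by 2% at each end, so log2(signal + 16) was quantile-normalized. The 31099 probe sets less 57 controls were filtered at the 40th percentile of mean level. Stages were compared with limma 3.58.1 in R 4.3.3 over all 9 arrays (intensity trend, two-sided, Benjamini-Hochberg adjustment over 18625 probe sets, threshold 0.05), tested on simulated data. Fold changes understate dim probe sets. Members and gene lists were chosen with earlier results of these data known. All member probe sets are given. Up to 4 genes per list were named by F test p on the brightest tested probe set. Tested genes also named were Lhx2, Mbp, Mag, Foxj1, Secisbp2, Avp, Oxt, Hcrt and Pmch, as were genes below the filter. Tbl1x, Tbl1xr1 and Ncor1 were named after their values were seen. Labels give no batch, date or pairing. The number of arrays limits precision. The alternatives were another constant, normalization, filter, prior, array weighting, threshold, probe set choice or set of arrays.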

Additional observations from a re-analysis of the deposited data

How the results depend on the processing

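Of 489 member differences recomputed under an alternative, 455 kept their direction and 34 turned it, 12 of these under another setting and 22 on leaving out an array; no member passed the threshold under any alternative run. The Rax differences from juvenile rats kept their sign throughout. At the 60th percentile filter Rax, Nes and Thrb 1378457_at could not be tested. At the deposited level limma called 10, 1 and 21 probe sets in early pubertal against juvenile, late pubertal against juvenile and late against early pubertal rats, and 16 by the F test, none of them members; array weights gave 1 in late pubertal against juvenile rats, and leaving out single arrays gave 0 to 1 there and 0 to 1 in the F test, with the 1 without juvenile replicate 2. Signs turned at the deposited level for early pubertal against juvenile Vim (−0.077), Thra 1367726_at (−0.16) and Crym (−0.16), for late pubertal against juvenile Nes (0.0038), and between the pubertal stages for Thra 1367726_at (0.034) and Thrb 1378457_at (0.23). Median centring turned Thrb 1394456_at in late pubertal against juvenile (−0.0078) and, between pubertal stages, Vim (−0.034) and Thrb 1378457_at (0.00094). Array weights turned early pubertal Crym (−0.0024) and, between pubertal stages, Vim (−0.083) and Nes (−0.040). On leaving out single arrays, early pubertal against juvenile differences ran from −0.080 to 0.20 for Vim, −0.25 to 0.0077 for Nes, −0.081 to 0.21 for Thra 1367726_at, −0.14 to 0.0080 for Thrb 1394456_at, −0.17 to 0.025 for Thrb 1378457_at and −0.12 to 0.25 for Crym. Late pubertal against juvenile differences ran from −0.15 to 0.17 for Nes, −0.13 to 0.023 for Thra 1370691_a_at, −0.0062 to 0.095 for Thrb 1394456_at and −0.12 to 0.017 for Thrb 1378457_at. Between pubertal stages they ran from −0.079 to 0.20 for Vim, −0.069 to 0.25 for Nes, −0.031 to 0.19 for Thra 1370691_a_at and −0.10 to 0.10 for Thrb 1378457_at. The cause was not tested. No paired analysis was possible because the stages hold different rats and the labels give no pairing.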
